A study of Mus musculus with 9 samples.

Results

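The 10 genes described here carry glutathione synthesis and the supply of NADPH in the cytosol. They are Gclc, Gclm, Gss and Gsr of the glutathione branch, and G6pdx, Pgd, Taldo1, Tkt, Me1 and Idh1 of the NADPH branch. They were chosen by symbol, as 10 of the 54134 entries of the count table, and all 10 were among the 13810 genes with enough counts to be tested. RNA was sequenced from HT22, a mouse hippocampal neuronal line of wild-type genotype, in 3 groups of 3 libraries. Control cells had no intervention, Hb cells were given oxyhemoglobin, the oxygenated blood pigment freed when red cells break down, and Hb+NTR1 cells were given oxyhemoglobin plus NTR1. Every Hb+NTR1 library therefore also carries the oxyhemoglobin treatment, and no group had NTR1 alone. The treatment notes of the samples write NTR1, their titles call that group ganyu, the series title writes NGR1, and the cell type field reads HT-4. The sources used here give no dose and no time. The labels do not tell whether libraries of one group stem from separate cultures. The p-values therefore rest on the scatter among these libraries alone, which may be technical.

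Glutathione is a small peptide of glutamate, cysteine and glycine that donates electrons to peroxides and conjugates reactive compounds. Glutamate-cysteine ligase, made of a catalytic subunit (Gclc) and a modifier subunit (Gclm), joins glutamate to cysteine in the rate-limiting step, and glutathione synthetase (Gss) adds glycine. Oxidised glutathione is returned to its reduced form by glutathione reductase (Gsr), which spends NADPH. The oxidative steps of the pentose phosphate pathway, run by G6pdx and Pgd, make NADPH, while transaldolase (Taldo1) and transketolase (Tkt) shuttle its sugars back to glycolysis. Cytosolic malic enzyme (Me1) and cytosolic isocitrate dehydrogenase (Idh1) are further sources of NADPH. Many of these genes are known targets of the transcription factor NRF2, which binds antioxidant response elements.

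Total counts per library ran from 13435891 to 16918242, so that 3 counts, the limit that a count of 0 allows, came to 0.177 to 0.223 CPM (counts scaled to a fixed library total). That floor covers counting error only. Hb replicate 2 stood apart: its counts gave a chi-square over its degrees of freedom equal to 13.4 and 11.1 against those of the other Hb libraries, while all other pairs within a group gave 2.53 to 5.22. Of 10 neuronal markers, 7 were under 1 CPM in control, and Map2 and Snap25 had no count in any library. Those above 1 CPM in control were Dlg4 at 70.2, Tubb3 at 32.6 and Syn1 at 24.7 CPM. Most of these markers thus do not bear out the neuronal label. The summed neuronal markers spanned 123.7 to 130.2 CPM in control, 128.3 to 135.3 in Hb and 56.2 to 59.3 in Hb+NTR1. The summed 8 fibroblast markers spanned 13908 to 14817 CPM in control, 11218 to 12636 in Hb and 1294 to 1396 in Hb+NTR1. Fap and Lum were the 2 of them under 1 CPM in control. The collagen genes Col1a2, Col1a1 and Col3a1, at 9098, 3624 and 1547 CPM in control, made up most of that sum. All 6 tested fibroblast markers fell in Hb+NTR1 against Hb, Pdgfra the least, from 78.8 ± 9.73 to 65.0 ± 3.68 CPM. Astrocyte and microglia markers summed to at most 3.23 CPM and erythroid markers to at most 1.92 CPM in any library. The share of counts from 37 mitochondrially encoded genes was 4.73 to 5.21% in control, 4.14 to 4.57% in Hb and 6.19 to 6.65% in Hb+NTR1. The part of these shifts in the results below was not tested. In these bulk libraries, fewer cells of a kind and less RNA per cell cannot be told apart.

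Levels are CPM after normalisation for library size and composition, given as mean ± SD over n = 3 libraries. Differences are log2 fold changes ± SE. They were tested by quasi-likelihood in edgeR, and p-values were adjusted by Benjamini-Hochberg over all 13810 genes, with a threshold of 0.05. The 3 comparisons share libraries: Hb enters both the comparison with control and that with Hb+NTR1, and control enters 2 of them as well.

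The genes at the head of both branches were higher in cells given oxyhemoglobin. In Hb against control, 4 of the 10 genes rose (Gclc, Gclm, G6pdx and Pgd) and 0 fell, against 3.65% of all tested genes called, 1.88% called higher and 1.77% called lower. The median log2 fold change of the 10 was 0.18, and over all tested genes it was 0. In Hb+NTR1 against Hb, 6 rose (Gclc, Gclm, Gss, Gsr, Pgd and Taldo1), 3 fell (G6pdx, Tkt and Idh1) and Me1 did not pass the test. The background of that comparison is high, with 62.3% of tested genes called, 30.7% higher and 31.6% lower. The members' 3 falls of 10 lie near that background share, whereas 6 rises of 10 lie above it. When the test asked for changes over 1.2-fold, 2 of the 10 (Gclc and Gclm) stayed called in Hb against control, 5 in Hb+NTR1 against Hb (G6pdx, Taldo1, Tkt and Idh1 were lost) and 5 in Hb+NTR1 against control (Gss, Taldo1 and Tkt were lost). In Hb+NTR1 against control, the same 6 genes rose and 2 fell (Tkt and Idh1), where 63.6% of tested genes were called, 31.4% higher and 32.2% lower. The libraries of the groups did not overlap for 7 of the 10 genes in Hb against control, 9 in Hb+NTR1 against Hb and 8 in Hb+NTR1 against control. For all tested genes the corresponding shares were 19.6%, 64.7% and 69.9%. None of the 10 genes is in the authors' deposited table of 691 genes for Hb+NTR1 against control, whose smallest absolute log2 fold change is 2.005.

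**Figure D1:**
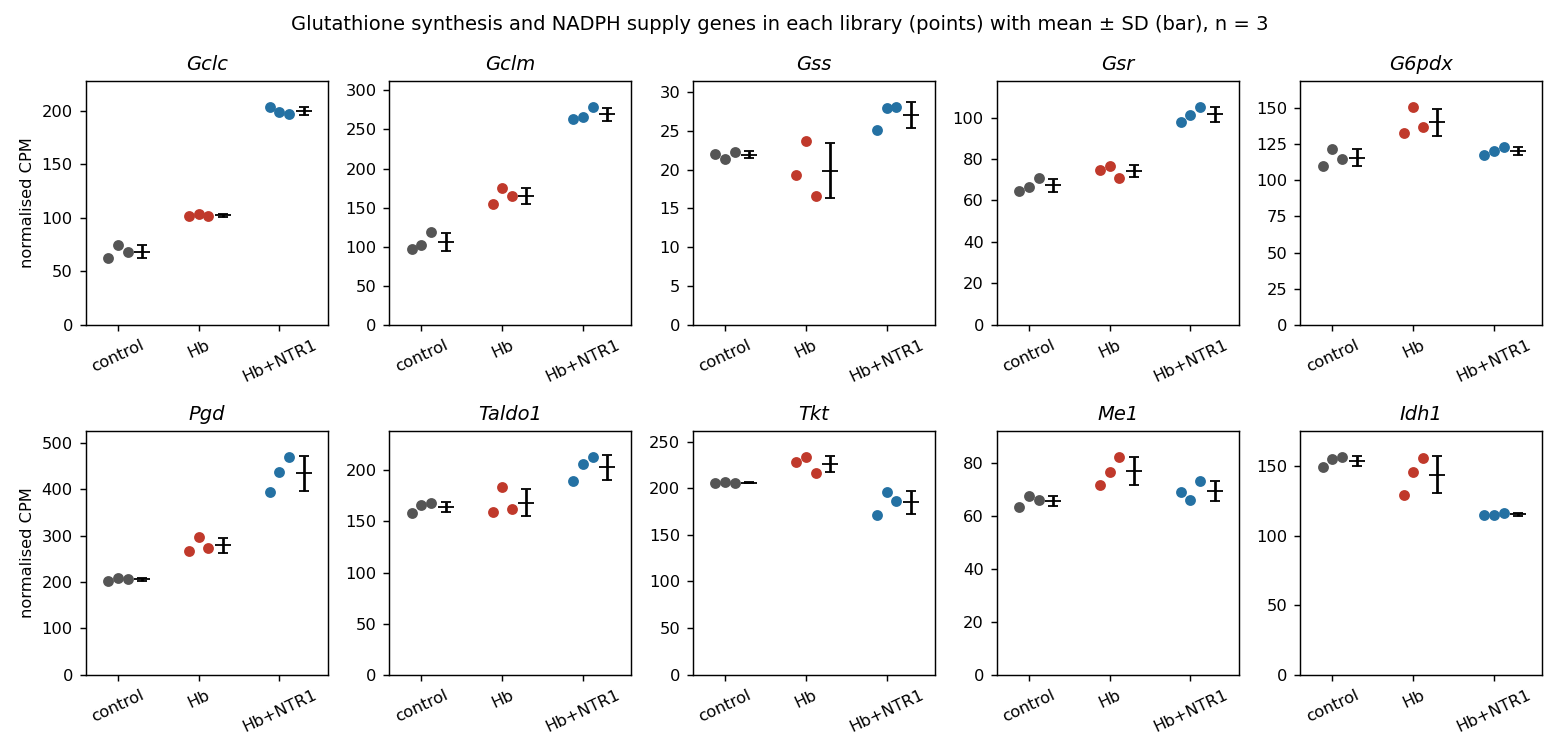
Normalised CPM (y axis, from 0) of the 10 genes in each of the 9 libraries, as points, with the mean and SD of each group of 3 as a bar, by group on the x axis. Gclc, Gclm and Pgd step up from control to Hb and again to Hb+NTR1, G6pdx is highest in Hb, and Idh1 is lowest in Hb+NTR1.

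Promoter windows, 250 bases before to 50 after a start site, were read from RefSeq on GRCm38.p6 for 8 of the 10 genes (Gclc and Gsr had none), 11 windows in all. The windows with a match to the core of the antioxidant response element, the element that NRF2 binds, are shown. The core TGACNNNGC was searched on both strands. It was in 4 of the 11 windows, 1 window each for Gclm, G6pdx, Me1 and Pgd, and in 4071 of all 32851 RefSeq windows (12.39%). Capitals mark the match, and each window is written 5′ to 3′ on the strand of its gene.
Gclm: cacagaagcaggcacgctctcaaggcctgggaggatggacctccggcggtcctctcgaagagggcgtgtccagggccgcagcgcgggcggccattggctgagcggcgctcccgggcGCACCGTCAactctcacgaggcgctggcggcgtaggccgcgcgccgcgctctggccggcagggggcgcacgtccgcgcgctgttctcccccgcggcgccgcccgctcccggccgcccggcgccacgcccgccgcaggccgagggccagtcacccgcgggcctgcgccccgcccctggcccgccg
G6pdx: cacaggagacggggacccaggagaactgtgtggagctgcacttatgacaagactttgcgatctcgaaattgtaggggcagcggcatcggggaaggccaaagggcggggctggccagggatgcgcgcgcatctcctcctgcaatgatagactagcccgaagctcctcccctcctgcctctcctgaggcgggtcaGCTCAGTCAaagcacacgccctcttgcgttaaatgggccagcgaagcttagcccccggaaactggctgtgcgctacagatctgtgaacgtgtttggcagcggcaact
Pgd: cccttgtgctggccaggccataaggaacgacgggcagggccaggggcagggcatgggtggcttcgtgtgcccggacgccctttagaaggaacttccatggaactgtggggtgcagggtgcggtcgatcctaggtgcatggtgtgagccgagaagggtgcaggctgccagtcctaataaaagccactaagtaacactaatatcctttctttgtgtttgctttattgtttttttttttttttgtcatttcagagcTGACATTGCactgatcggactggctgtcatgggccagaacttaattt
Me1: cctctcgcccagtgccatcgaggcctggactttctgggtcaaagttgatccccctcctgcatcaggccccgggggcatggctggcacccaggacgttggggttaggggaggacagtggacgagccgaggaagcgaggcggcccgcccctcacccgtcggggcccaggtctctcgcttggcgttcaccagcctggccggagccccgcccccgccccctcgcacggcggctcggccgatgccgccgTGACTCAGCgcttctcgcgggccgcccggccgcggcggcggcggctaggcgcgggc
The Gclm window lies on the plus strand at chr3:122245307-122245606, and its match is on the strand opposite to the gene, with its first printed base 134 bases before the start site. The G6pdx window lies on the minus strand at chrX:74428831-74429130, with a match, also on the opposite strand, that begins 57 bases before the start site. The Pgd window lies on the minus strand at chr4:149166033-149166332, around the second of 2 start sites, and its match begins 4 bases after that site. This window lies wholly inside the annotated Pgd gene, downstream of the first start site. Whether the second start site is used in these cells was not tested. The window around the first Pgd start site, at chr4:149166656-149166955, held no match. The Me1 window lies on the minus strand at chr9:86695865-86696164, and its match begins 6 bases before the start site. Matches that begin before a start site thus belong to Gclm, which rose at both steps, and to G6pdx, which rose and then fell. Me1, which did not pass the test in any comparison, also has such a match. Pgd, which rose at both steps, has a match only after its second start site. A match is a description of letters, not a binding site.

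Gclc, the catalytic subunit of the ligase (chromosome 9, 77754535 to 77794485, plus strand, GRCm38), was at 62.5, 74.3 and 68.4 CPM in the control libraries, 101.6, 103.6 and 101.8 in Hb and 203.4, 199.1 and 196.8 in Hb+NTR1. The 3 groups form 3 separate steps, with little spread among the Hb libraries. Gclc rose 1.497-fold in Hb over control (log2 0.58 ± 0.0683, adjusted p = 5.62e-06 by edgeR). It rose a further 1.95-fold in Hb+NTR1 over Hb (log2 0.96 ± 0.0662, adjusted p = 9.35e-12 by edgeR) and stood 2.92-fold over control. Gclm, the modifier subunit (chromosome 3, 122245557 to 122270732, plus strand), was at 96.7, 102.2 and 118.9 CPM in control, 154.5, 175.5 and 164.8 in Hb and 262.9, 266.5 and 278.5 in Hb+NTR1. Again no library of one group reached into the next. Gclm rose 1.56-fold in Hb over control (log2 0.64 ± 0.0732, adjusted p = 4.18e-06 by edgeR) and 1.63-fold in Hb+NTR1 over Hb (log2 0.71 ± 0.0716, adjusted p = 8.38e-09 by edgeR). Some Gclm reads are uncertain, since 296 of its 6291 annotated exon bases are shared with the opposite-strand gene Gm17494 and 244 with the same-strand pseudogene Gm6061, and the sources used here do not give the strand setting of the counting.

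Gss, which adds the glycine (chromosome 2, 155563181 to 155592810, minus strand), had the lowest level of the 4 glutathione genes. Its CPM was 22.0, 21.4 and 22.3 in control, 19.3, 23.7 and 16.6 in Hb and 25.1, 27.9 and 28.1 in Hb+NTR1. The Hb libraries scattered around the control values, and all Hb+NTR1 libraries lay above both other groups. In Hb against control the log2 difference was -0.14 (95% interval -0.38 to 0.09, adjusted p = 0.586 by edgeR), so the test called no difference. Gss rose 1.36-fold in Hb+NTR1 over Hb (log2 0.44 ± 0.112, adjusted p = 0.00146 by edgeR). Its 1.23-fold rise over control (adjusted p = 0.0205 by edgeR) was lost without control replicate 2 (0.0629), without Hb+NTR1 library b (0.0627) and without library c (0.0718). Of its 5915 exon bases, 913 are shared with the opposite-strand genes Acss2, Gssos1 and Gssos2, so part of its count is uncertain.

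Gsr, the NADPH-spending reductase that recycles glutathione (chromosome 8, 33652523 to 33698163, plus strand), was at 64.7, 66.4 and 70.9 CPM in control, 74.9, 76.7 and 70.9 in Hb and 98.1, 101.3 and 105.0 in Hb+NTR1. The lowest Hb library lay barely above the highest control library. The log2 difference of 0.14 ± 0.0691 in Hb against control did not pass the test (adjusted p = 0.315 by edgeR). In Hb+NTR1 Gsr rose 1.37-fold over Hb (log2 0.45 ± 0.0681, adjusted p = 3.76e-06 by edgeR) and 1.51-fold over control (adjusted p = 6.15e-08 by edgeR). All 4 glutathione genes thus rose in Hb+NTR1 over Hb, while 2 of the 4, both ligase subunits, rose in Hb over control.

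G6pdx, the first and rate-limiting enzyme of the oxidative pentose phosphate pathway (chromosome X, 74409483 to 74429194, minus strand), was at 110.2, 121.9 and 114.6 CPM in control, 132.8, 150.6 and 136.7 in Hb and 117.3, 120.0 and 123.1 in Hb+NTR1. The Hb libraries lay above all others, and the Hb+NTR1 libraries overlapped control. G6pdx rose 1.21-fold in Hb over control (log2 0.28 ± 0.0663, adjusted p = 0.0164 by edgeR), and fell 1.17-fold in Hb+NTR1 against Hb (log2 -0.22 ± 0.0663, adjusted p = 0.00577 by edgeR). The rise was lost without control replicate 1 (adjusted p = 0.120 by edgeR), without control replicate 3 (0.0921) and when only changes over 1.2-fold were tested. Part of its exons, 418 of 3080 bases, is shared with the opposite-strand gene Ikbkg. Its intronless copy G6pd2 had no count in any library, so the deposited counts assign no reads to it.

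Pgd, the second NADPH-producing enzyme of that pathway (chromosome 4, 149149991 to 149166771, minus strand), was at 202.5, 208.7 and 205.7 CPM in control, 267.0, 297.8 and 273.4 in Hb and 395.4, 438.7 and 470.5 in Hb+NTR1. The groups did not overlap, and the spread was widest in Hb+NTR1. Pgd rose 1.36-fold in Hb over control (log2 0.44 ± 0.0677, adjusted p = 2.02e-04 by edgeR). It rose 1.56-fold in Hb+NTR1 over Hb (log2 0.64 ± 0.0672, adjusted p = 1.60e-08 by edgeR) and 2.12-fold over control. G6pdx and Pgd, consecutive in the pathway, therefore rose together with oxyhemoglobin and moved in opposite directions when NTR1 was added. The ratio of Pgd to G6pdx counts within a library was 1.78 ± 0.0640 for control, 1.996 ± 0.0173 for Hb and 3.62 ± 0.229 for Hb+NTR1.

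**Figure D2:**
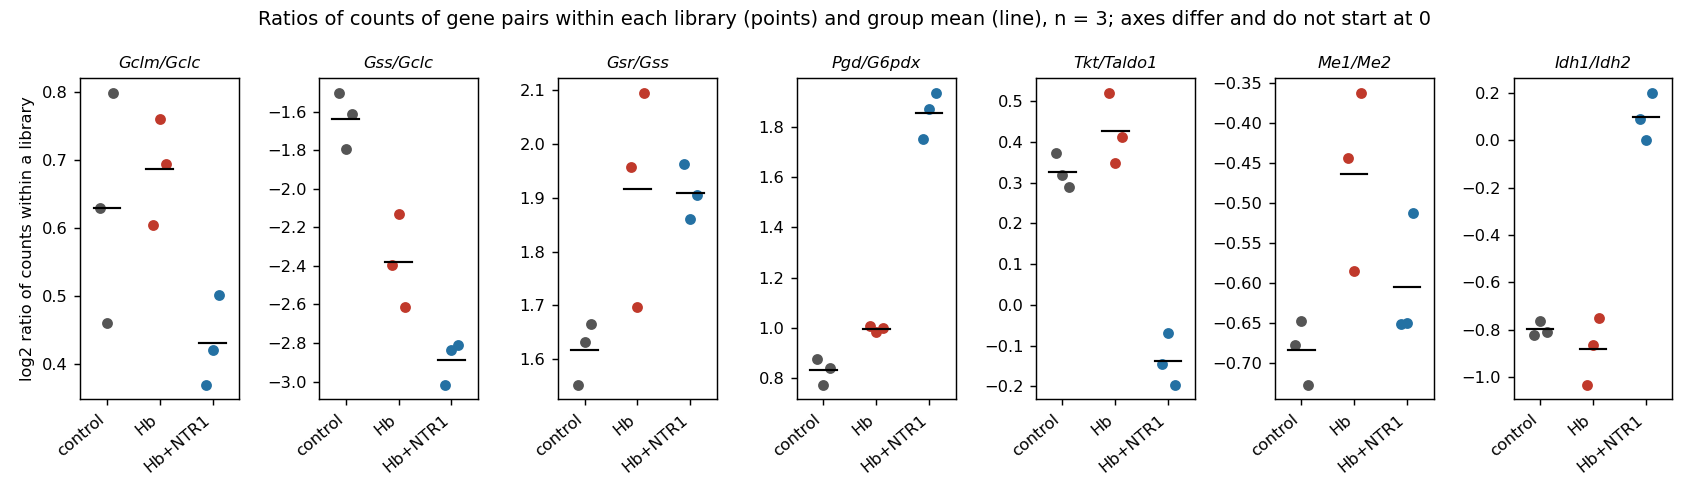
Log2 ratio of the counts of paired genes within each library (y axis), which does not depend on library scaling, with 1 point per library by group on the x axis and a line for the mean of 3. The y axes differ between pairs and do not start at 0. Pgd over G6pdx and Idh1 over Idh2 are higher in all Hb+NTR1 libraries than in the other libraries, and Gss over Gclc steps down.

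Taldo1, which passes carbon units between sugars (chromosome 7, 141392199 to 141402968, plus strand), was at 158.5, 166.1 and 168.3 CPM in control, 159.2, 183.5 and 162.4 in Hb and 189.8, 206.1 and 213.3 in Hb+NTR1. Control and Hb overlapped, and Hb+NTR1 was above both. The difference of Hb from control was 0.036 on the log2 scale (adjusted p = 0.847 by edgeR), and -0.032 without Hb replicate 2. Taldo1 rose 1.21-fold in Hb+NTR1 over Hb (log2 0.27 ± 0.0672, adjusted p = 0.00125 by edgeR). Tkt, its partner enzyme (chromosome 14, 30548359 to 30574720, plus strand), was at 205.4, 207.2 and 205.7 CPM in control, 228.3, 233.7 and 216.1 in Hb and 171.5, 196.5 and 186.2 in Hb+NTR1. The Hb libraries were the highest and the Hb+NTR1 libraries the lowest of the 9. The Hb difference of 0.13 ± 0.0628 log2 did not pass (adjusted p = 0.290 by edgeR), but Tkt fell 1.22-fold in Hb+NTR1 against Hb (log2 -0.29 ± 0.0630, adjusted p = 3.25e-04 by edgeR). Its 1.116-fold fall against control (adjusted p = 0.0325 by edgeR) was lost with library totals in place of composition scaling (0.179). It was also lost without any one of control replicates 1 (0.0676), 2 (0.0863) and 3 (0.0771) or Hb+NTR1 libraries a (0.212) and c (0.0670). The ratio of Tkt to Taldo1 counts was 1.35 ± 0.0816 in Hb and 0.910 ± 0.0405 in Hb+NTR1.

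Me1, cytosolic malic enzyme (chromosome 9, 86581371 to 86695953, minus strand), was at 63.6, 67.4 and 66.2 CPM in control, 71.9, 76.5 and 82.4 in Hb and 69.0, 65.9 and 73.3 in Hb+NTR1. All Hb libraries lay above control, and Hb+NTR1 overlapped both. Me1 passed the test in 0 of 3 comparisons, with log2 0.23 ± 0.0729 in Hb against control (adjusted p = 0.0933 by edgeR). That value passed with library totals (0.0343) and without Hb replicate 2 (0.0494). In Hb+NTR1 against Hb its log2 difference was -0.15 ± 0.0729 (adjusted p = 0.0819 by edgeR), which passed without Hb replicate 1 (0.0273). Its mitochondrial relative Me2 had means of 105.6, 106.1 and 105.4 CPM in control, Hb and Hb+NTR1.

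Idh1, cytosolic isocitrate dehydrogenase (chromosome 1, 65158616 to 65186500, minus strand), was at 149.8, 155.3 and 156.8 CPM in control, 129.6, 146.1 and 155.8 in Hb and 114.6, 115.2 and 116.4 in Hb+NTR1. The Hb libraries spread widely and reached into control, while the Hb+NTR1 libraries lay close together below all others. Idh1 differed by log2 -0.10 ± 0.0669 in Hb against control (adjusted p = 0.506 by edgeR). It fell 1.246-fold in Hb+NTR1 against Hb (log2 -0.32 ± 0.0677, adjusted p = 2.75e-04 by edgeR) and 1.33-fold against control (adjusted p = 1.00e-05 by edgeR). Idh2, the mitochondrial enzyme, fell further in Hb+NTR1, from 264.6 ± 2.05 CPM in Hb to 108.1 ± 6.84 (log2 -1.29 ± 0.0627, adjusted p = 1.71e-14 by edgeR). As a result the ratio of Idh1 to Idh2 counts was 0.544 ± 0.0526 in Hb and 1.07 ± 0.0739 in Hb+NTR1.

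**Figure D3:**
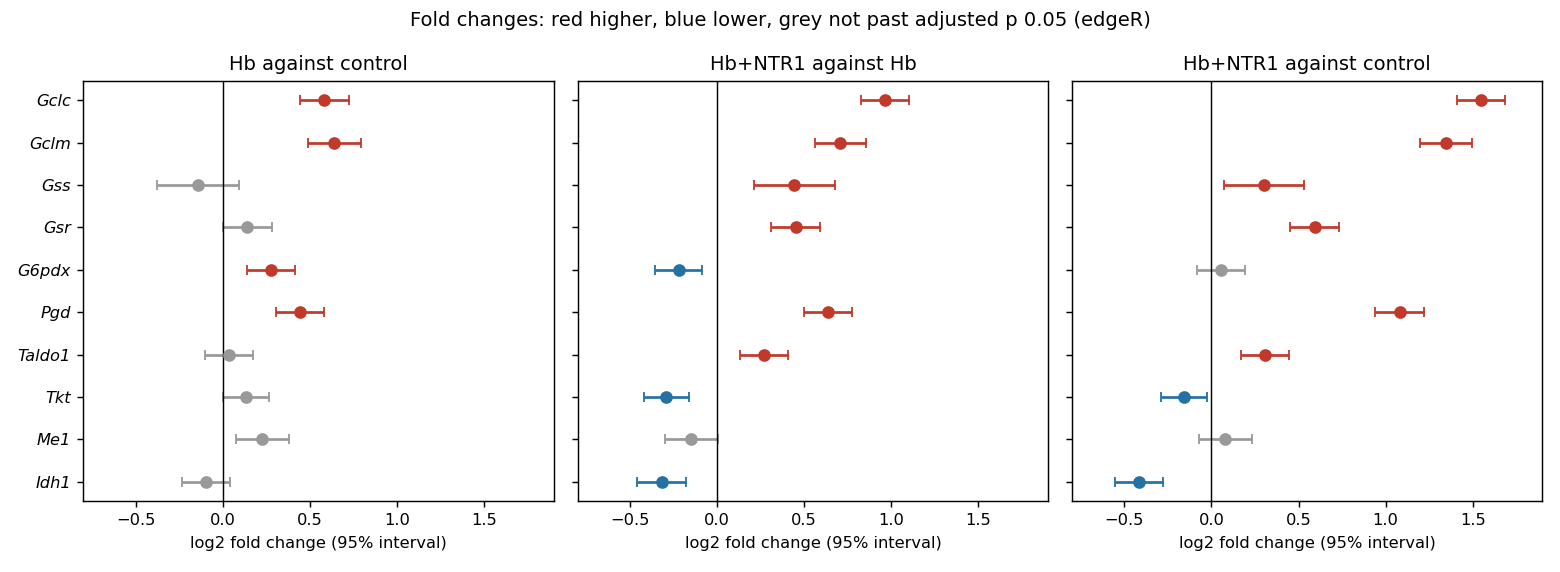
Log2 fold changes of the 10 genes in the 3 comparisons with their 95% intervals from the edgeR fit (x axis, 0 is no difference), in red for higher, blue for lower and grey for not called. Gclc, Gclm and Pgd lie to the right of 0 in every comparison, and G6pdx changes side between Hb against control and Hb+NTR1 against Hb.

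Ratios within a library were tested for 7 fixed pairs in 3 comparisons, 21 tests in all, by a two-sided exact permutation test. With 3 libraries against 3 the smallest p the test can give is 0.1, so no ratio could pass. After Benjamini-Hochberg adjustment over the 21 tests the smallest value found was 0.15. Pgd over G6pdx did not overlap between the groups in all 3 comparisons, which by itself gives an exact permutation p of 0.1. Its log2 differences were 0.17 in Hb against control, 0.86 in Hb+NTR1 against Hb and 1.02 in Hb+NTR1 against control. Gss over Gclc was lower at each step, by -0.74 in Hb against control and -0.51 in Hb+NTR1 against Hb on the log2 scale. Its groups also did not overlap, at the same exact permutation p of 0.1. The synthetase transcript was thus scarcer relative to that of the catalytic ligase subunit at each step. The 2 ligase subunits kept closer to each other: Gclm over Gclc differed by 0.06 in Hb against control, where the libraries overlapped (exact permutation p = 0.7) and the sign turned without control replicate 2 (-0.03), and by -0.26 in Hb+NTR1 against Hb, where they did not. Tkt over Taldo1 was lower by -0.56 and Idh1 over Idh2 higher by 0.98 in Hb+NTR1 against Hb, both without overlap.

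Levels of the 10 genes were ranked per kilobase of the exons of their coding transcripts. In control the order was Taldo1 (120.5 CPM per kb), Pgd (92.7), Tkt (63.9), Idh1 (62.2), G6pdx (43.6), Gsr (25.2), Gclc (19.98), Gclm (19.0), Me1 (18.2) and Gss (11.2). Gclc overlapped Gclm, and Gclm overlapped Me1, so those neighbours do not differ beyond their spread. In Hb, Pgd (126.0) drew level with Taldo1 (123.4), with overlapping libraries. In Hb+NTR1 Pgd led at 196.1 CPM per kb, and Gclc, at 58.4, overlapped Tkt at 57.3, having been sixth in Hb and seventh in control. Gss was the lowest of the 10 in every group. The order depends on the exons counted: with all annotated exons as length, a setting added after the data were seen, Pgd in control stood at 31.9, below Taldo1 at 75.7, Idh1 at 55.5 and G6pdx at 37.5. By that length Taldo1 led Pgd in Hb (77.55 against 43.34) and in Hb+NTR1 (93.53 against 67.45), without overlap. Gclc in Hb+NTR1, at 53.04, then lay above Tkt at 25.12, also without overlap.

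The other genes of these pathways, from lists chosen by known role, did not follow the 10 as a block. Glutathione precursor and turnover genes, 17 tested of 21 listed, had 0 calls in Hb against control, and 4 rose and 10 fell in Hb+NTR1 against Hb, with a median log2 fold change of -0.55 beside -0.011 for all tested genes. The shares of all tested genes were 3.65% called in Hb against control, and 30.7% called higher and 31.6% lower in Hb+NTR1 against Hb. The deepest fall in this list was that of Cth, which makes cysteine from cystathionine, from 59.8 ± 6.25 CPM in Hb to 10.4 ± 0.0940 in Hb+NTR1 (log2 -2.52 ± 0.104, adjusted p = 1.00e-15 by edgeR). Slc7a11, the cystine importer, named here after its values were seen, fell from 37.0 ± 5.36 to 23.2 ± 1.80 CPM (adjusted p = 4.78e-06 by edgeR). Cth and Slc7a11, both of cysteine supply, were thus lower in the libraries in which both ligase subunits were higher. Abcc4, an exporter that can carry glutathione conjugates, rose from 35.5 ± 5.39 to 73.1 ± 1.57 CPM. Anpep, a surface peptidase, fell from 7.10 ± 2.14 to 2.43 ± 0.788 CPM. Ahcy, of the methionine cycle, fell from 5.88 ± 0.351 to 2.29 ± 0.455 CPM, a value made uncertain by its near-identical copies.

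Of 11 tested genes among 13 listed for the rest of the pentose phosphate pathway, 0 were called in Hb against control, and 6 rose and 3 fell in Hb+NTR1 against Hb, with a median log2 fold change of 0.36. Over all tested genes, 3.65% were called in Hb against control, and 30.7% were called higher and 31.6% lower in Hb+NTR1 against Hb. Pgls, whose enzyme acts between G6pdx and Pgd, fell from 64.0 ± 7.08 to 32.8 ± 2.74 CPM (log2 -0.97 ± 0.0901, adjusted p = 2.10e-09 by edgeR). Of the 3 consecutive enzymes of the oxidative arm, then, the first and second fell and the third rose. Rpia, which isomerises ribose phosphate, fell from 23.8 ± 1.97 to 15.2 ± 0.936 CPM. Dera, which handles deoxyribose phosphate, rose from 24.3 ± 2.77 to 38.7 ± 2.27 CPM. The listed Pgm2 rose from 75.0 ± 7.06 to 124.2 ± 0.807 CPM, but which enzyme that symbol stands for in these counts was not checked. Of the transketolase relatives, Tktl2 had no count in any library. Tktl1, with mean CPM of 0.562 for control, 0.684 for Hb and 2.48 for Hb+NTR1, rose 3.58-fold in Hb+NTR1 over Hb (log2 1.84 ± 0.352, adjusted p = 8.10e-05 by edgeR), where Tkt fell, at a level far below that of Tkt.

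Of the 13 other NADPH and NADP supply genes, all tested, 0 rose and 9 fell in Hb+NTR1 against Hb, with a median log2 fold change of -0.46, and in Hb against control 1 fell. Over all tested genes in Hb+NTR1 against Hb, 30.7% were called higher and 31.6% lower, and in Hb against control 1.77% were called lower. Aldh1l2, the mitochondrial formyltetrahydrofolate dehydrogenase, fell from 278.1 ± 41.9 to 101.5 ± 2.30 CPM. Mthfd2, of the mitochondrial folate cycle, fell from 230.7 ± 19.2 to 109.5 ± 6.82 CPM. Nadk2, the mitochondrial NAD kinase, was lower in each step, at 117.2 ± 5.803 CPM in control, 98.1 ± 2.99 in Hb (adjusted p = 0.0266 by edgeR) and 54.1 ± 2.22 in Hb+NTR1 (adjusted p = 1.48e-10 by edgeR). With Idh2 these are the 4 called members that the naming rule picked by size of change. The other falls included the cytosolic enzymes Mthfd1, from 125.8 ± 5.58 to 91.7 ± 0.708 CPM (adjusted p = 1.03e-06 by edgeR), and Nadk, from 169.2 ± 7.11 to 153.3 ± 6.34 CPM (adjusted p = 0.0464 by edgeR), named here after their values were seen. The minor malic enzyme Me3 had means of 1.48, 1.80 and 1.39 CPM.

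**Figure D4:**
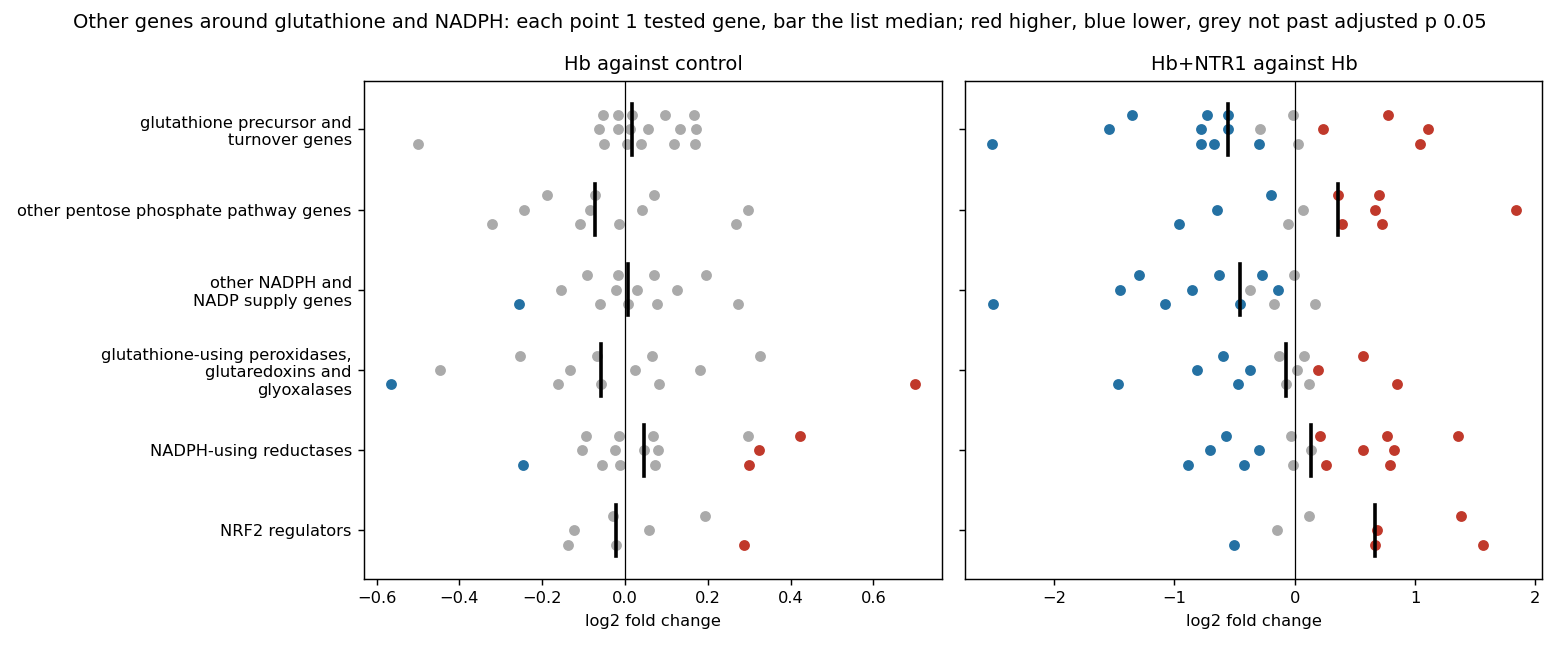
Log2 fold change (x axis, whose range differs between panels) of each tested gene of the 6 other lists as a point, in Hb against control on the left and Hb+NTR1 against Hb on the right, coloured by call at an adjusted p of 0.05, with a bar at the list median. In the right panel the other NADPH and NADP supply genes have 9 lower and 0 higher points.

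Genes that spend glutathione or NADPH were called in both directions in Hb+NTR1 against Hb, where 62.3% of all tested genes were called. For Hb against control, the shares of all tested genes were 1.88% called higher and 1.77% called lower. Of 13 tested glutathione-using peroxidases, glutaredoxins and glyoxalases, 1 rose and 1 fell in Hb against control, and 3 rose and 5 fell in Hb+NTR1 against Hb (median log2 fold change -0.07), a share near that background. In Hb against control the one that rose was Esd, which releases glutathione from its formyl conjugate, from 195.7 ± 12.5 to 318.0 ± 39.1 CPM (log2 0.70 ± 0.0761, adjusted p = 2.19e-06 by edgeR). In Hb+NTR1 against Hb, Hagh, the second glyoxalase, rose from 26.7 ± 2.70 to 48.1 ± 4.31 CPM. Gpx7, Glrx5 and Glrx3, a peroxidase and 2 glutaredoxins of iron-sulfur handling, fell by 1.47, 0.81 and 0.60 on the log2 scale. Of 15 NADPH-using reductases, 3 rose and 1 fell in Hb against control, and 7 rose and 5 fell in Hb+NTR1 against Hb (median 0.13). Txnrd1, cytosolic thioredoxin reductase, rose at each step, from 259.8 ± 1.92 to 319.5 ± 9.11 and 816.7 ± 44.0 CPM (adjusted p = 0.00459 and 4.67e-15 by edgeR). Ptgr1, a reductase of prostaglandins and reactive aldehydes, rose from 95.9 ± 3.82 to 120.0 ± 10.4 CPM in Hb. Por, which feeds electrons to cytochromes P450, rose from 88.1 ± 5.82 to 152.7 ± 8.26 CPM and Fasn, of fatty acid synthesis, fell from 576.8 ± 121.5 to 312.5 ± 8.10 CPM in Hb+NTR1 against Hb.

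Among 7 genes of NRF2 and its partners, 1 rose in Hb against control and 4 rose and 1 fell in Hb+NTR1 against Hb (median 0.67). Over all tested genes, 1.88% were called higher in Hb against control. In Hb+NTR1 against Hb, 62.3% were called, 30.7% higher and 31.6% lower. Mafg, a small MAF partner, was the one of the 7 that rose in Hb, from 106.9 ± 9.94 to 130.5 ± 4.15 CPM (log2 0.29, adjusted p = 0.0163 by edgeR). Nfe2l2, which encodes NRF2, was at 66.8 ± 7.57 CPM in control and 60.6 ± 1.42 in Hb and rose to 157.4 ± 4.72 in Hb+NTR1 (log2 1.38 ± 0.0749 over Hb, adjusted p = 1.30e-13 by edgeR). Its transcript was not called in Hb against control (adjusted p = 0.388 by edgeR), in which both ligase subunits and the oxidative pentose phosphate pair rose. NRF2 protein was not measured, so its part in that rise was not tested. From Hb to Hb+NTR1, Maff rose from 10.9 ± 1.08 to 32.2 ± 3.66, Bach1, a repressor at the same elements, from 44.7 ± 0.724 to 71.7 ± 2.65, and Mafk from 38.5 ± 2.38 to 61.2 ± 3.60 CPM. Keap1, which targets NRF2 for degradation, fell by 0.51 on the log2 scale.

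The genes whose log2 CPM followed Gclm most closely over the 9 libraries were Hsf2 (Pearson r = 0.993), Sirt7 (0.990) and Fth1 (0.989), and 707 genes had r above 0.9. Fth1, the ferritin heavy chain, went from 1049 ± 61.4 to 1752 ± 223.0 and 2884 ± 150.0 CPM, and its pseudogene copies make its counts uncertain. G6pdx was most like Cdk5 (0.950), Sgk2 (0.947) and Yrdc (0.930), and 11 genes passed 0.9, a smaller number than for Gclm. Sgk2, a kinase, was low, at 1.28 ± 0.229, 3.24 ± 0.216 and 1.39 ± 0.0657 CPM in control, Hb and Hb+NTR1. Idh1 was most like Sar1a (0.991), Tmeff1 (0.983) and Rgs20 (0.982), with 968 genes above 0.9. These coefficients describe 9 libraries that fall into 3 groups and share group means and scaling.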

How the data were processed

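Messenger RNA was selected with poly(A) beads and sequenced on an Illumina NovaSeq, per the labels' protocols. The submitters' processing notes name HTSeq 0.10.0, HISAT2 2.1.0, bcl2fastq 2.19.1.403 and the build GRCm38. The sources used here give neither the annotation release nor the strand setting. The values the authors deposited are raw counts for each gene symbol, without normalisation. Of the table's 54232 entries, 98 exact repeats were removed. The authors' deposited comparison table gives counts, log2 fold changes and p-values for 691 genes, with no test named. Columns beginning with N were taken as Hb+NTR1, because the authors set them against control in that table. They are called a, b and c, since which sample is which is not shown.

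Counts were fitted with edgeR 4.0.16 in R 4.3.3: filterByExpr with a minimum count of 10, TMM factors, all 9 libraries in 1 robust quasi-likelihood fit with group as the term, and two-sided tests with Benjamini-Hochberg adjustment. SE is the absolute log2 fold change over the square root of F. The fit was tested on simulated data. Exons and positions came from GENCODE M21 on GRCm38 and promoters from RefSeq. Alternatives were DESeq2 size factors, DESeq2 1.42.0, other filters, library totals, a fit on 6 libraries per comparison, a test against 1.2-fold, a block for replicate number, and leaving out each library in turn. The members and lists were chosen with earlier results of these data known. Besides the members and their relatives, up to 4 called genes of a list, with the largest changes and at least 5 CPM in the higher group, could be named, and the 3 genes most alike. Some genes that this rule picked are left out of the text.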

Additional observations from a re-analysis of the deposited data

How the results depend on the processing

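Of the recomputed log2 fold changes of the 10 genes, 436 kept their direction and side of the threshold, 20 lost the call and 3 gained it, as named in the report, and 1, which was not called, changed sign (Taldo1 in Hb against control, -0.032 without Hb replicate 2 and up to 0.0745 without other libraries). For Hb against control, the total of called genes was the least stable value among those recomputed. It was 504, but 97 with a 1.2-fold threshold in the test, and 285 to 1125 with 1 library left out, the highest without Hb replicate 2. With the 1.2-fold threshold, 2 of the 10 genes (Gclc and Gclm) were called in Hb against control, and Pgd was not (adjusted p = 0.146 by edgeR). The same threshold left 5 called in Hb+NTR1 against Hb and 5 in Hb+NTR1 against control. Same-numbered control and Hb libraries correlated at 0.139, -0.018 and -0.045, and differently numbered ones at -0.143 to 0.166. That check showed no clear pairing by replicate number but does not settle whether replicates share an effect. With only the 6 libraries of Hb against control fitted, 371 genes were called without a replicate block and 534 with it. Both of these fits called 4 of the 10. Leaving out Hb replicate 2, an alternative chosen after seeing the data for the lists, moved 3 list counts: 2 precursor and turnover genes rose and 4 glutathione users fell in Hb against control, and 2 NRF2 regulators fell in Hb+NTR1 against Hb. The ratios kept their direction in 150 alternative values and not in 4. These were small differences between groups that overlap: Gclm over Gclc in Hb against control (-0.0275 without control replicate 2, up to 0.1415 without others), and Gsr over Gss in Hb+NTR1 against Hb (0.0175 without Hb+NTR1 library b, 0.0139 without Hb replicate 1 and 0.0821 without Hb replicate 3, against -0.0067 with all libraries and down to -0.116 without Hb replicate 2). The cause was not tested. Precision is limited by 3 libraries a group, and exons shared with neighbouring genes limit Gss, G6pdx and Gclm.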

Other observations

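Of 86 tested genes in the members and pathway lists, 10 were called both in Hb against control and in Hb+NTR1 against Hb, 6 in the same direction and 4 in opposite directions. Over all tested genes, 3.65% were called in the first comparison and 62.3% in the second. The share called in both was not computed over all genes, so these counts have no background beside them. Both comparisons use the Hb libraries, and the genes named next were picked after their values were seen. Among the 4 were G6pdx, Akr1b3 and Glrx. Akr1b3, the NADPH-using aldose reductase, had 51.4 ± 2.01 CPM (SD, n = 3) in control, with 68.8 ± 6.78 for Hb and 42.3 ± 1.17 for Hb+NTR1. Glrx, a cytosolic glutaredoxin, went from 15.4 ± 1.89 to 10.4 ± 2.35 and back to 15.4 ± 0.539 CPM.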
